A study of Mus musculus with 16 samples.

Results

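Mouse embryonic fibroblasts (MEFs) that lack SIMPL, the product of Irak1bp1, still answered TNFα with a broad change in gene expression, led by chemokine genes and by the genes of the proteins that restrain NF-κB. The answer was measured on the 8 SIMPL-/- arrays of a series of 16 Affymetrix Mouse Gene 1.0 ST arrays, of which 4 came from untreated and 4 from TNFα treated SIMPL-/- MEFs. The arrays were chosen by their genotype label, IRAK1BP1 KO, and no measured value entered the choice. The other 8 arrays, 4 untreated and 4 treated, came from littermate control MEFs, labelled WT. They are used here to ask which part of the answer differs in littermate MEFs. All MEFs were of the strain C57Bl/6 x 129Sv and were proliferating when they were left alone or given recombinant human TNFα at 10 ng/ml, for 45 min by the labels, where the methods of the study give a longer time for the arrays. By those methods each set of MEFs came from a single embryo and the derivation was made 4 independent times for each genotype, and this statement, which was not tested here, is the ground for treating the 4 arrays of a group as replicates. Which untreated array shares an embryo with which treated array is not given in the sources used here. The arrays report the RNA of whole cultures, in which fewer cells of a type and less RNA per cell cannot be told apart.

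TNFα is an inflammatory cytokine that binds receptors on nearly every nucleated cell. In mouse cells human TNFα is known to engage the type 1 receptor and hardly the type 2 receptor. The type 1 receptor gathers adaptor proteins, ubiquitin ligases and kinases, and these activate the IκB kinases and the MAP kinases. The IκB kinases mark the IκB proteins for destruction, which frees dimers of the Rel family, such as p65 with p50, to enter the nucleus and switch on genes with κB sites. Among the earliest of these targets are the IκB proteins themselves and the ubiquitin editor A20, which shut the pathway down again, and the chemokines and adhesion molecules that bring leukocytes into tissue. SIMPL is a co-activator of p65, and the study asked which TNFα induced genes need it.

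Irak1bp1 was checked in every array. Its log2 value was 5.32, 5.16, 5.62 and 5.35 in the untreated and 5.26, 5.53, 5.08 and 5.60 in the treated SIMPL-/- arrays, with a response of 0.01 (SE 0.12), and its level in untreated cells differed by -2.73 from the littermate level on the log2 scale (adjusted p = 2.15e-12 from limma). The position of its probe set relative to the deletion was not looked at. Fibroblast genes were bright without TNFα, where Col1a1 read 14.14 ± 0.04 and Thy1 read 12.34 ± 0.11 in the SIMPL-/- arrays (SD, n = 4). Of 18 fibroblast markers, 12 were lower and 3 higher than in untreated littermate MEFs (limma, adjusted p under 0.05). Lum differed by -2.87, Dcn by -1.02, Thy1 by 0.73 and S100a4 by 1.69 on the log2 scale. Of 11 epithelial markers 8 were higher and 0 lower, and of 11 muscle markers 7 were higher and 0 lower. The mean over 26 markers of myeloid cells ran from 7.31 to 7.45 over the untreated and from 7.34 to 7.45 over the treated SIMPL-/- arrays, so these ranges overlap, and no marker of the list was called in either direction (limma, adjusted p under 0.05, with 2 raised and 0 lowered at an unadjusted p under 0.05). In the littermate arrays the same mean ran from 9.28 to 9.64 without and from 9.37 to 9.81 with TNFα. Of the 26 markers, 25 were lower in untreated SIMPL-/- than in untreated littermate MEFs, against 17.6% of all genes, while 23.3% of all genes were higher. Ptprc and Adgre1, which mark leukocytes and macrophages, stood at 6.50 and 7.14 in untreated SIMPL-/- MEFs and at 8.46 and 9.66 in untreated littermate MEFs. The part of these differences in marker level in the genotype comparison was not tested. Array medians lay between 6.67 and 6.76, and the median SD of a gene was 0.0897 over the untreated and 0.103 over the treated SIMPL-/- arrays.

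Of 19938 genes, TNFα raised 345 (1.73%) and lowered 278 (1.39%) in SIMPL-/- MEFs by limma with an adjusted p below 0.05, so that 3.12% were called, and 3102 genes had an unadjusted p under 0.05. The rises were the larger changes. Of the raised genes 88 rose by more than 1.5-fold, 36 by more than 2-fold, 8 by more than 4-fold and 3 by more than 8-fold, while 16 of the lowered genes fell by more than 1.5-fold and 1 by more than 2-fold. The median change was 1.32-fold among the raised and 1.24-fold among the lowered genes. The 4 treated arrays lay wholly above the untreated arrays for 327 of the 345 raised genes and wholly below them for 264 of the 278 lowered genes, where 3.87% and 5.41% of all genes were so separated. The balance of the directions moved with centring. As deposited 55.4% of the called genes were raised, and with each array centred on its median this share was 72.5%, from 401 raised and 152 lowered genes. With quantile normalization it was 56.8%, from 395 raised and 300 lowered genes. The median response over all genes was -0.02 on the log2 scale as deposited. The count of lowered genes also moved with single arrays. It was 145, 168 and 169 without untreated SIMPL-/- array 1, 3 or 4, and 145 and 148 without treated array 1 or 2.

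**Figure D1:**
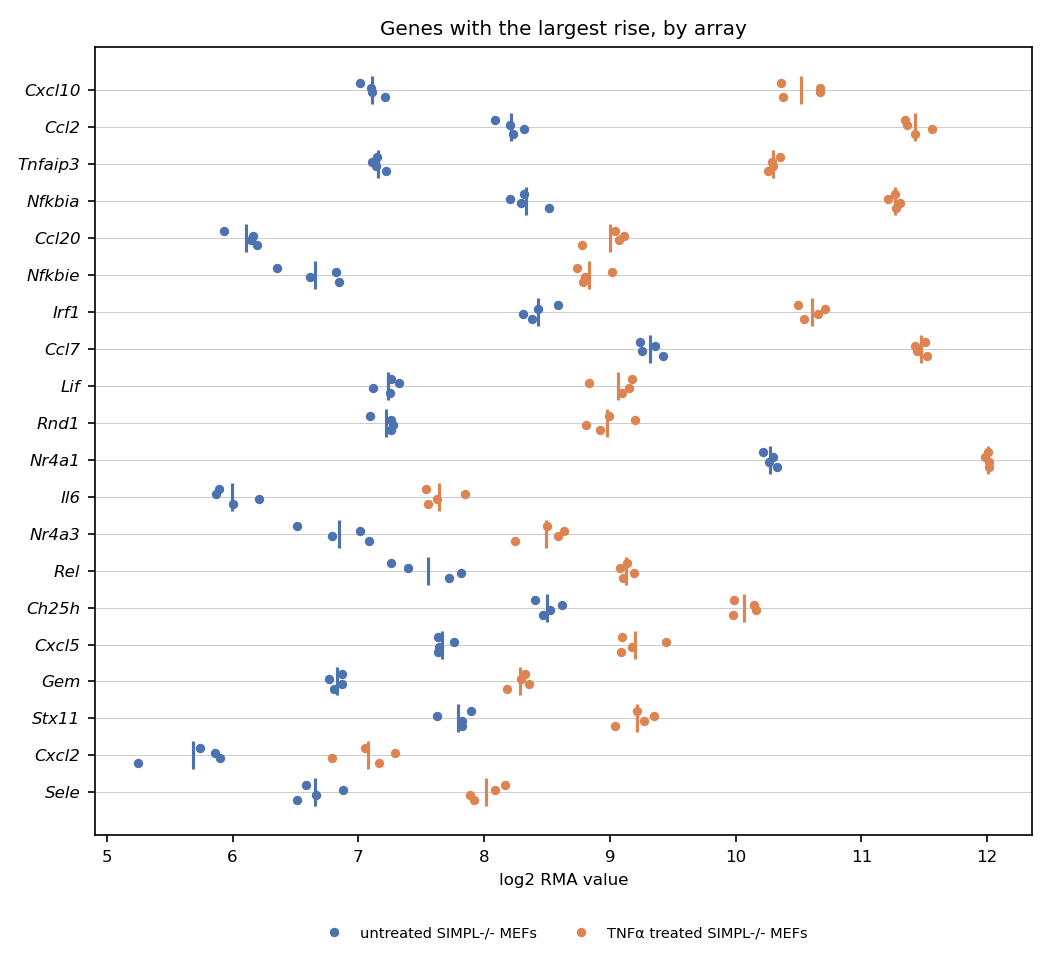
The 20 genes with the largest rise among those whose groups do not overlap, as log2 RMA values on the horizontal axis. Each point is 1 array, blue for untreated and orange for TNFα treated SIMPL-/- MEFs, and each vertical bar is a group mean over 4 arrays. Cxcl10 rose from a mean of 7.11 to 10.52, and for every gene shown the 4 orange points lie to the right of the 4 blue points.

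The strongest responders were Cxcl10, Ccl2, Tnfaip3, Nfkbia and Ccl20. Ccl2 has no window in the RefSeq table used, so its promoter was not searched. The promoters of the other 4, whose RefSeq window (250 bases before to 50 after the start, build GRCm38.p6, 5′ to 3′ on the gene's strand) holds the NF-κB consensus motif, are shown because this motif is the sequence that Rel dimers are known to bind. The capitals mark each match. Cxcl10 lies at chr5:92348840-92349139 on the minus strand, Tnfaip3 at chr10:19015361-19015660 on the minus strand, Nfkbia at chr12:55492598-55492897 on the minus strand and Ccl20 at chr1:83116516-83116815 on the plus strand.
Cxcl10: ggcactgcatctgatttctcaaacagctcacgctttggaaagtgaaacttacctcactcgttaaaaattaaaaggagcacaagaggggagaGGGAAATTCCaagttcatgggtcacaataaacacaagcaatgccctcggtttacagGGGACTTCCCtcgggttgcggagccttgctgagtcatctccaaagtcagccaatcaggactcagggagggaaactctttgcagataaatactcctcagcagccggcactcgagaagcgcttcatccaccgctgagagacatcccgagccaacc
Tnfaip3: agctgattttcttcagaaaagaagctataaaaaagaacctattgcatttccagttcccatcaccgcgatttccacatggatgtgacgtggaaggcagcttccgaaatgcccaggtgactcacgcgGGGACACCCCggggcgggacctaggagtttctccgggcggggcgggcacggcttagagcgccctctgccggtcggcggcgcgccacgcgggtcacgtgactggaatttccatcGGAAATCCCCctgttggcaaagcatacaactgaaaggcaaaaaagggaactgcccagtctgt
Nfkbia: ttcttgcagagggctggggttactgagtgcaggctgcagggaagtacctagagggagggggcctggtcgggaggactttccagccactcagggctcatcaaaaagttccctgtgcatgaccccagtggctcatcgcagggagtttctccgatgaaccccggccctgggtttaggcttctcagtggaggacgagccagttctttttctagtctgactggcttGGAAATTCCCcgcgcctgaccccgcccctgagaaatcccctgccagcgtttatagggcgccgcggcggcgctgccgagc
Ccl20: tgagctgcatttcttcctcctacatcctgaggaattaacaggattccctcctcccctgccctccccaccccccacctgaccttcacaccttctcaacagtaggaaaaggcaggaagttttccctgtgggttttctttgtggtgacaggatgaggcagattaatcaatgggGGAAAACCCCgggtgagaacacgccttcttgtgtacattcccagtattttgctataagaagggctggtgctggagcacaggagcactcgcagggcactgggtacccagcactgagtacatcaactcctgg
The matches began 159 and 103 bases before the start of Cxcl10, 125 and 12 bases before that of Tnfaip3, 29 bases before that of Nfkbia and 80 bases before that of Ccl20. Tnfaip3 has a second RefSeq window, for another start, with no match.

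The motif was counted in the same way for all genes, with both strands searched and overlapping matches kept apart. It was present in 950 of 19177 windows of all measured genes (4.95%), which come from the 15614 genes with a window. Of the windows of raised genes 50 of 349 held it (14.3%). The share was 9.96% for genes raised by 1.5-fold or less, 29.5% for genes raised by more than 1.5-fold and 38.7%, or 12 of 31 windows, for genes raised by more than 2-fold. Of the windows of lowered genes 8 of 292 held it (2.74%). Among the 20 genes with the largest rise 15 have a window, and 10 of these hold the motif. They include, beside the 4 printed, Nfkbie, Irf1, Nr4a1, Il6, Rel and Cxcl2. With a stricter spelling of the consensus the shares were 1.41% of all windows and 11.5% of those of genes raised by more than 1.5-fold. These shares describe the letters in a short window and were not tested, and windows were found for 64 of the 88 genes raised by more than 1.5-fold.

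**Figure D2:**
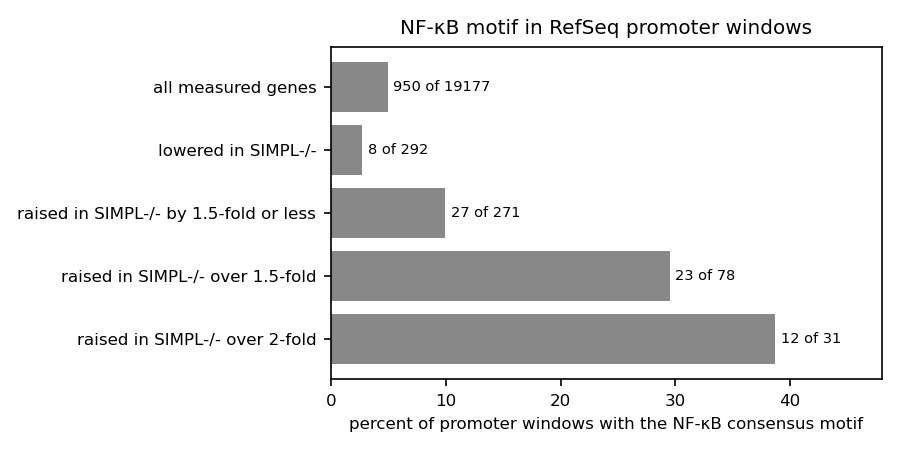
Percent of RefSeq promoter windows that hold the NF-κB consensus motif, for all measured genes and for genes called in SIMPL-/- MEFs, with the number of windows written beside each bar. The bar is 4.95% for all genes and 38.7% for genes raised by more than 2-fold.

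Chemokines, the small proteins that direct leukocytes, were the largest block of strong responders. Of 27 measured chemokine genes 11 were raised and 0 lowered in SIMPL-/- MEFs (2 lowered at an unadjusted p under 0.05), and the list's median response was 0.26 on the log2 scale. Over all genes 1.73% were raised and 1.39% lowered, and each list count below is to be read beside these shares. Cxcl10, which draws activated T cells, had log2 values of 7.21, 7.11, 7.10 and 7.01 in untreated and 10.38, 10.67, 10.67 and 10.36 in treated arrays. All treated arrays were high and close together, and the rise was 3.41 on the log2 scale, or 10.7-fold (SE 0.08, adjusted p = 5.15e-16). Ccl2, which draws monocytes, read 8.23, 8.32, 8.21 and 8.09 untreated and 11.43, 11.56, 11.36 and 11.34 treated, a rise of 3.21 or 9.26-fold (SE 0.07). Ccl20, the ligand of CCR6 on T cells and dendritic cells, read 6.19, 6.15, 6.16 and 5.93 untreated and 8.78, 9.07, 9.11 and 9.04 treated. Its rise was 2.89 (SE 0.16), with the treated arrays apart from the untreated ones. Ccl7, another monocyte attractant, rose by 2.15 (SE 0.06). The neutrophil attractants Cxcl5, Cxcl2 and Cxcl1 rose by 1.53, 1.39 and 1.16. Smaller rises were measured for Cxcl9 (1.02), Cxcl16 (0.71), Cx3cl1 (0.44) and the eosinophil attractant Ccl11 (0.28, adjusted p = 0.042). Not all chemokines took part. Cxcl12, which retains stem cells in the marrow, had a response of -0.14 (adjusted p = 0.19), and Ccl5 one of 0.27 (adjusted p = 0.082).

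The NF-κB feedback list, of inhibitors and ubiquitin editors, has 19 measured genes, of which 7 were raised, 1 was lowered and 11 were not called, with a median of 0.18, and some of the 7 rose nearly as far as the strongest chemokine genes. Tnfaip3, which encodes A20, read 7.22, 7.14, 7.11 and 7.15 untreated and 10.25, 10.30, 10.29 and 10.35 treated, and rose by 3.14, or 8.83-fold (SE 0.07, adjusted p = 3.80e-16). Nfkbia, which encodes IκBα, read 8.52, 8.29, 8.21 and 8.32 untreated and 11.28, 11.31, 11.21 and 11.26 treated, and rose by 2.93, or 7.64-fold (SE 0.06). The treated arrays of both genes agreed closely and lay far above the untreated arrays. Nfkbie, which encodes IκBε, rose by 2.18, Bcl3, a nuclear IκB protein that can also activate genes, by 1.30, and the ribonuclease gene Zc3h12a by 0.95. Tnip1, which encodes a partner of A20, and Nfkbib, which encodes IκBβ, rose by 0.57 and 0.53. Trafd1, described as a negative regulator of innate signalling, fell by 0.33 (adjusted p = 0.015). Its call was lost in the 8 SIMPL-/- arrays alone (0.052) and without any 1 of 4 of these 8 arrays. Tnip3 had a response of 0.38 that did not pass the test (adjusted p = 0.19).

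The genes of 4 Rel proteins were raised as well. The list of Rel family and IκB kinase genes has 8 measured members, of which 4 were raised and 0 lowered (0 also at an unadjusted p under 0.05). Rel, which encodes c-Rel, read 7.72, 7.82, 7.40 and 7.26 untreated and 9.10, 9.19, 9.08 and 9.14 treated. The untreated arrays spread widely and the treated arrays agreed, and the rise was 1.58 (SE 0.09, adjusted p = 9.90e-10). Relb read 8.19, 7.98, 8.26 and 8.20 untreated and 9.31, 9.27, 9.31 and 9.19 treated, a rise of 1.11. Nfkb2, which encodes the p52 precursor, rose by 0.82 and Rela, which encodes p65, by 0.41. Upstream of them, 4 of 20 genes of the TNF receptor complex were raised and 1 was lowered, where 1.73% and 1.39% of all genes were. Birc3, a ubiquitin ligase of this complex that protects from cell death, rose by 1.31, the kinase gene Map3k8, which links the IκB kinases to ERK, by 0.65, Cflar, an inhibitor of caspase-8, by 0.37 and Tab3 by 0.26 (adjusted p = 0.044), and Tab1 fell by 0.21 (adjusted p = 0.037).

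Cytokine and growth factor genes made up a further group, with 10 of 29 raised and 0 lowered (1 lowered at an unadjusted p under 0.05). Among all genes 1.73% were raised and 1.39% lowered. Lif, which encodes a cytokine of the interleukin 6 family, read 7.25, 7.12, 7.32 and 7.26 untreated and 9.09, 9.15, 8.84 and 9.17 treated, a rise of 1.83, or 3.55-fold (SE 0.11). Il6 itself read 6.00, 6.21, 5.87 and 5.89 untreated and 7.55, 7.63, 7.85 and 7.54 treated, a rise of 1.65 (SE 0.17, adjusted p = 3.82e-06). The groups are apart for both genes. The epidermal growth factor receptor ligands Ereg and Hbegf rose by 1.29 and 0.49. The colony stimulating factors Csf1 and Csf2 rose by 0.69 and 0.57, the angiogenic factor gene Vegfa by 0.52, the keratinocyte growth factor gene Fgf7 by 0.46, Il1a by 0.43 and Inhba by 0.39.

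Of 20 adhesion molecules and cell surface receptors 10 were raised and 0 lowered (0 also at an unadjusted p under 0.05), with a median response of 0.35. The shares of all genes were 1.73% and 1.39%. Sele, which encodes E-selectin, read 6.51, 6.66, 6.88 and 6.58 untreated and 7.92, 7.89, 8.09 and 8.17 treated, and rose by 1.36, or 2.56-fold. Icam1, a ligand of leukocyte integrins, read 8.02, 8.03, 8.23 and 8.14 untreated and 9.30, 9.34, 9.53 and 9.23 treated, and rose by 1.24. Vcam1, another integrin ligand, rose by 0.87, the pattern recognition receptor gene Tlr2 by 0.79, Cd83 by 0.78, the death receptor gene Fas by 0.70 and Pvr by 0.67. The other 3 raised members were Plaur, Cd44 and Epha2, with rises from 0.32 to 0.48.

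The immediate early transcription factors were the list with the most raised members, 19 of 34, and 1 was lowered, Id3, by 0.34. Its median response was 0.43, and 1.73% of all genes were raised and 1.39% lowered. The orphan nuclear receptor gene Nr4a1 read 10.33, 10.26, 10.29 and 10.22 untreated and 12.02, 12.02, 11.98 and 12.01 treated, a rise of 1.73, or 3.32-fold, from an already high level. Its relatives Nr4a3 and Nr4a2 rose by 1.64 and 0.98. Klf10 rose by 1.26, Bhlhe40 by 1.17, the zinc finger genes Egr2 and Egr3 by 1.02 and 0.72, and the AP-1 genes Fosl1, Junb, Fosb and Jun by 1.01, 0.89, 0.71 and 0.57. The stress gene Atf3 rose by 0.79 and the survival gene Ier3 by 0.84. The other 14 genes of this list were not called, among them Fos and Egr1, both with responses of -0.21 (limma, adjusted p = 0.46 and 0.29). Of 21 genes of MAP kinase phosphatases and ERK feedback 8 were raised, 2 were lowered and 11 were not called. Gadd45b, an inhibitor of stress kinase signalling, rose by 0.94, Phlda1 by 0.83, the receptor kinase inhibitor gene Errfi1 by 0.80, the ERK phosphatase gene Dusp5 by 0.53 and Spry4 by 0.50. Spry1 fell by 0.40 and Gadd45g by 0.36.

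Genes for proteins that destroy mRNA or restrain growth were raised in the largest proportion, 8 of 10 with 0 lowered (1 at an unadjusted p under 0.05) and a median of 0.45. By comparison 1.73% of all genes were raised and 1.39% lowered. Zc3h12a, already named, encodes Regnase-1, which cuts cytokine mRNAs. Btg2 rose by 0.93, Zfp36, which encodes tristetraprolin, by 0.71, and Zc3h12c by 0.62. Outside the lists, the 20 largest rises held 4 more genes. Ch25h, whose enzyme makes an antiviral and signalling oxysterol, rose by 1.57. Gem, which encodes a small GTPase that restrains calcium channels, rose by 1.46. Stx11, a SNARE gene of secretory granules, rose by 1.42 and Rnd1, which encodes another GTPase, by 1.76. Of 11 regulators of G protein signalling Rgs16 alone was raised, by 1.11.

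Of 19 matrix proteases and hyaluronan genes 6 were raised, among them the hyaluronan synthase gene Has1 (0.85), the protease genes Mmp10 (0.62), Mmp9 (0.58) and Plau (0.51), and Serpinb2 (0.53, adjusted p = 0.019, with overlapping groups). Of 11 prostaglandin and lipid mediator genes the synthases Ptges and Ptgs2 rose by 0.68 and 0.52, the latter with an adjusted p of 0.031, Sphk1 rose by 0.41, and the receptor gene Ptger4 fell by 0.27. Of 15 apoptosis regulators 4 were raised. They were Birc3 (1.31), the pro-apoptotic genes Bid (0.53) and Bcl2l11 (0.37), and the inflammatory caspase gene Casp4 (0.35, adjusted p = 0.048). Of 12 p53 targets Btg2 and Mdm2 rose, the latter by 0.26, and Sesn2 fell by 0.39. For these lists too the shares of all genes were 1.73% raised and 1.39% lowered.

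Most genes of the interferon list were not called, though its share of called genes was above that of all genes. Irf1, a transcription factor gene that both interferon γ and NF-κB are known to induce, read 8.38, 8.31, 8.43 and 8.59 untreated and 10.55, 10.66, 10.71 and 10.50 treated, and rose by 2.18, or 4.52-fold (SE 0.07, adjusted p = 1.08e-13). Irf1 is also read by another probe set of weaker signal, on which the rise was 0.31. Over all genes 1.73% were raised and 1.39% lowered. Of the 29 genes of the list 2 were raised, Irf1 and Irf5 (0.41), and 3 were lowered. The lowered genes were Stat2 by 0.50 and Irf9 by 0.33, which encode partners in the factor that interferon α and β activate, and the antigen transporter gene Tap1 by 0.34 (adjusted p = 0.027, with overlapping groups). The calls were lost for Tap1 with centred arrays (adjusted p = 0.054) and without any 1 of 5 single arrays, and for Irf9 without any 1 of 3. The other 24 genes were not called, and the median response of the list was -0.07. No gene was called among 19 proliferation genes (limma, with 0 raised and 4 lowered at an unadjusted p under 0.05) or among 11 housekeeping genes (2 raised and 0 lowered). Among marker lists of other cell types, Flt1 of endothelium rose by 0.28 and Krt19 of epithelium by 0.32, and none of the 11 lymphoid and mast cell markers (2 lowered at an unadjusted p under 0.05) or of the 11 muscle markers (0) was called by limma. Among 18 fibroblast markers Pdgfra fell by 0.34.

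**Figure D3:**
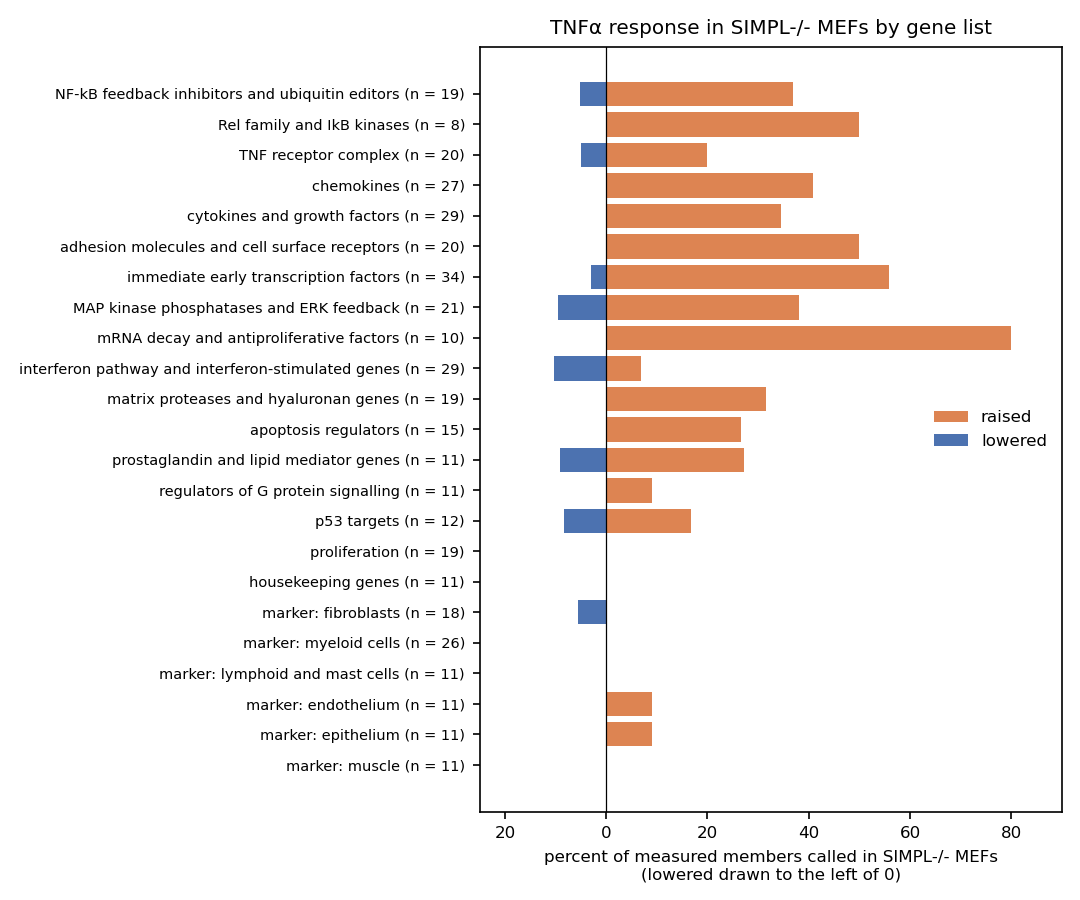
Percent of the measured members of each gene list that were raised (orange, right of 0) or lowered (blue, drawn left of 0) by TNFα in SIMPL-/- MEFs (limma, adjusted p below 0.05), with the number of measured members in parentheses. Over all genes 1.73% were raised and 1.39% lowered, while 8 of 10 mRNA decay genes and 19 of 34 immediate early genes were raised.

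The lowered genes fell less than the raised genes rose. Snai2, with the largest fall among genes whose groups do not overlap, encodes the repressor Slug of mesenchymal cells. It read 10.27, 10.24, 10.17 and 10.19 untreated and 9.30, 9.28, 9.23 and 9.45 treated. The arrays of either group agreed closely, and the fall was 0.90 on the log2 scale, or 1.87-fold (SE 0.06, adjusted p = 6.96e-09). Zfp503 fell by 0.76 and Dmrt2, a doublesex-related gene of somite patterning, by 0.59. Osr1, a zinc finger gene of limb and kidney mesoderm, read 8.75, 8.60, 8.90 and 8.67 untreated and 8.13, 8.12, 8.14 and 8.10 treated, a fall of 0.61. Mab21l2, needed for the eye and body wall, fell by 0.59. The Eph receptor gene Ephb3 and the planar polarity gene Prickle1 fell by 0.79 and 0.65.

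Slc40a1, which encodes the iron exporter ferroportin, read 7.46, 7.56, 7.74 and 7.47 untreated and 6.63, 6.71, 7.09 and 6.59 treated, a fall of 0.80 (SE 0.10, adjusted p = 5.83e-05), with treated array 3 the highest of its group. Trib3, a pseudokinase gene of the stress response, fell by 0.74. Mylip, whose ubiquitin ligase degrades the LDL receptor, fell by 0.65, the retinaldehyde reductase gene Dhrs3 by 0.60 and Ppp1r3c, a glycogen targeting subunit of a phosphatase, by 0.59. The vasodilator peptide gene Adm read 9.09, 8.77, 8.93 and 9.06 untreated and 8.28, 8.16, 8.47 and 8.39 treated, a fall of 0.64 (SE 0.08). The remaining genes of the 15 largest falls were 2610008E11Rik (0.70) and Sertad4 (0.59). Nqo1, an antioxidant enzyme gene, was the only gene lowered by more than 2-fold, and it is named here after its values were seen. It read 9.50, 9.36, 9.38 and 9.50 untreated and 7.79, 8.02, 9.47 and 8.16 treated. Treated array 3 lay with the untreated arrays and the groups overlap. The fall was 1.08 on the log2 scale (SE 0.23, adjusted p = 0.0099), and it was 1.45 without that array.

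**Figure D4:**
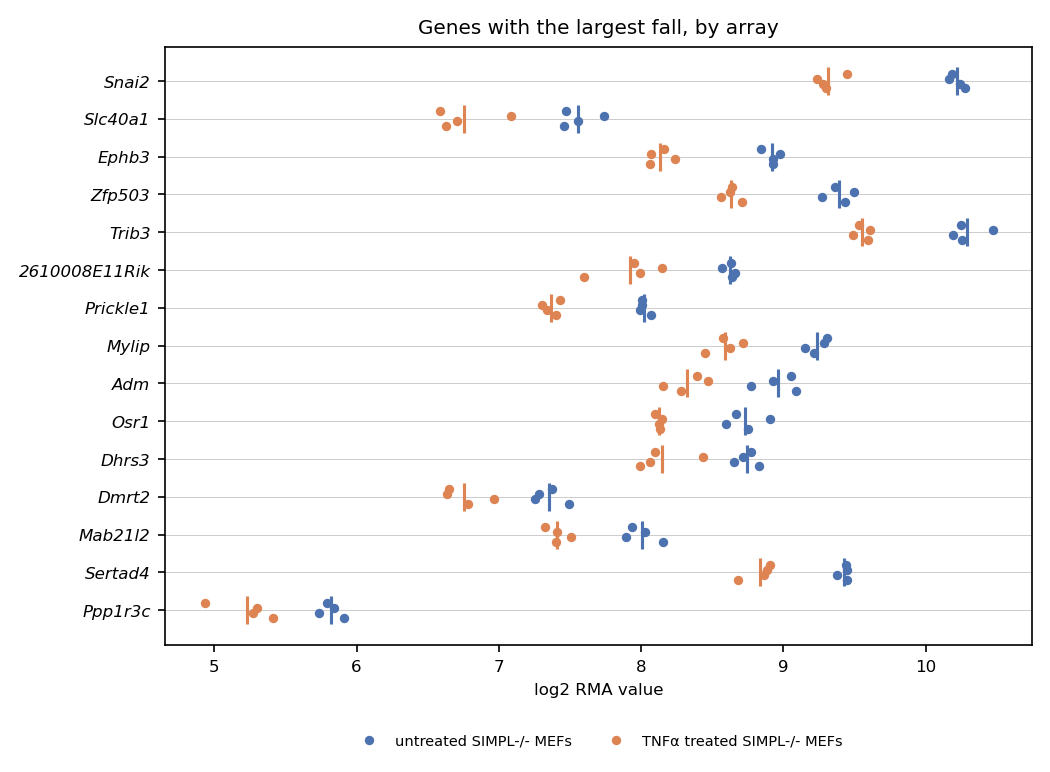
The 15 genes with the largest fall among those whose groups do not overlap, as log2 RMA values on the horizontal axis, with 1 point for each array (blue untreated, orange TNFα treated SIMPL-/- MEFs) and a vertical bar at each mean over 4 arrays. Snai2 fell from 10.22 to 9.32, and for every gene shown the orange points lie to the left of the blue points.

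The littermate arrays show how far these responses differ between littermate and SIMPL-/- MEFs. The untreated cultures also differed in their starting levels, as given above, and the part of this in the responses was not tested. In littermate MEFs 538 genes were raised (2.70%) and 488 lowered (2.45%). Of the genes raised in SIMPL-/- MEFs 221 were also raised in littermate MEFs, which is 64.1% of the first list and 41.1% of the second. Of the lowered genes 99 were lowered in both, which is 35.6% and 20.3%. A gene that misses the threshold in one genotype is not shown to differ by that alone, so the difference between the responses was tested for all genes in the same limma model. It was negative, with a smaller rise or larger fall in SIMPL-/- MEFs, for 88 genes (0.441%) and positive for 19 (0.0953%), in all 0.537% of the genes. Of the 88 genes that SIMPL-/- MEFs raised by more than 1.5-fold, the difference was negative for 29, positive for 1, Mmp10, and not called for 58. For 39 of these 58 the 95% interval of the difference lay within 1.5-fold either way, and for the others a larger difference is within the interval. The median rise of the 88 genes was 0.88 in SIMPL-/- and 1.26 in littermate MEFs on the log2 scale, and 59 had the larger estimate in littermate MEFs. The batch in which arrays were processed is not given in the sources used here, so batch and genotype cannot be told apart if they run together.

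**Figure D5:**
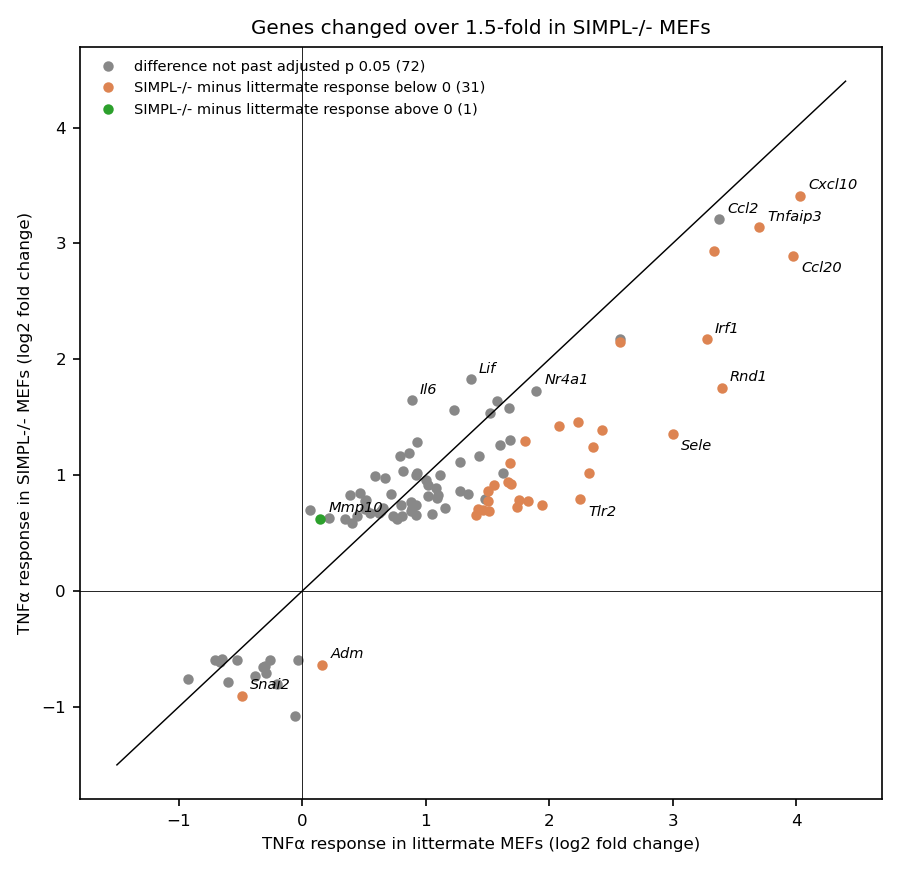
TNFα response of each gene that changed by more than 1.5-fold in SIMPL-/- MEFs, with the littermate response on the horizontal and the SIMPL-/- response on the vertical axis, both as log2 fold changes, and a line where they are equal. Orange points are genes with a negative and the green point (Mmp10) the gene with a positive difference at an adjusted p under 0.05, grey points are not called. Ccl2 lies near the line, and Sele, with 2.999 in littermate and 1.36 in SIMPL-/- MEFs, lies far below it.

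Several of the strongest responders had responses of similar size in both genotypes. The difference for Ccl2 was -0.17 (95% interval -0.38 to 0.05), with responses of 3.21 and 3.38. For Cxcl5 it was 0.02 (-0.27 to 0.30), for Nr4a3 0.06 (-0.31 to 0.44), for Nr4a1 -0.16 (-0.60 to 0.28) and for Rel -0.10 (-0.37 to 0.17). The interval of Nr4a1 reaches just past 1.5-fold, and those of the other 4 genes lie within it. None of the 8 Rel family and IκB kinase genes had a called difference (limma, 2 at an unadjusted p under 0.05). Over all genes 0.537% had one, so its absence among so few genes says little. The raised members Relb, Nfkb2 and Rela had estimates of -0.17, -0.20 and -0.20. Among immediate early genes 2 of 34 had a called difference, above the share of all genes. They were Maff and Csrnp1, with rises of 0.71 and 0.55 in SIMPL-/- MEFs against 1.43 and 1.13 in littermate MEFs. The call for Maff was lost in the unmoderated test (adjusted p = 0.053). Of 29 cytokine and growth factor genes 4 had a negative and 1 a positive called difference by limma, where 0.441% and 0.0953% of all genes did. Csf1 rose by 0.69 against 1.51 in littermate MEFs (adjusted p = 7.1e-05) and Fgf7 by 0.46 against 0.90 (adjusted p = 0.014). The call for Fgf7 was lost with centred arrays (0.053). Within this list Lif and Il6 had larger estimates in SIMPL-/- MEFs, with differences of 0.46 (0.13 to 0.79, adjusted p = 0.22) and 0.76 (0.26 to 1.26, adjusted p = 0.19) that did not pass the test. Untreated SIMPL-/- MEFs already had 1.33 more Il6 signal on the log2 scale than untreated littermate MEFs.

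Other genes were raised in both genotypes, by less in SIMPL-/- than in littermate MEFs. The difference was -0.61 for Cxcl10 (3.41 against 4.03, adjusted p = 0.013), -0.56 for Tnfaip3 (3.14 against 3.70, adjusted p = 0.010) and -0.40 for Nfkbia (2.93 against 3.34, adjusted p = 0.043). The call for Nfkbia was lost with centred arrays (adjusted p = 0.094), in the unmoderated test (0.063) and without any 1 of 14 of the 16 single arrays (0.052 to 0.0998). Larger differences were measured for Ccl20 (-1.08), Cxcl2 (-1.04), Irf1 (-1.10), Icam1 (-1.11) and Gem (-0.78), and Rnd1 and Sele both differed by -1.64, with littermate rises of 3.40 and 2.999. The call for Ccl20 (adjusted p = 0.034) was lost with quantile normalization (0.055), trend and robust variances (0.054), the unmoderated test (0.14) and without any 1 of 11 single arrays (up to 0.081). The other probe set of Irf1 had a difference of -0.06. Among adhesion molecules and surface receptors 11 of 20 had a negative difference, where 0.441% of all genes did, but the list was written with earlier results of these arrays known and the count is no independent support. They include Vcam1 (0.87 against 1.502), Tlr2 (0.79 against 2.25), Cd83 (0.78 against 1.83) and Fas (0.70 against 1.46). Clec4e had the largest difference of those reported here, -2.11, with a response of 0.47 that did not pass the test in SIMPL-/- MEFs (adjusted p = 0.18) and 2.58 in littermate MEFs. Cd14, with 0.18 against 0.79, is also one of the 26 myeloid markers. The mean of those markers was 9.46 in untreated littermate and 7.37 in untreated SIMPL-/- MEFs, as given above. Of the 88 genes with a negative difference 37 were raised in littermate MEFs and not called raised in SIMPL-/- MEFs. Tnfaip2 (1.02 against 2.32) and Rasgef1b (0.74 against 1.94) were raised in both, and Ccrl2, Cd69 and Tnip3 had responses of 0.19, 0.20 and 0.38 that did not pass the test in SIMPL-/- MEFs. In the unmoderated test the differences of Cxcl10, Cxcl2, Cd83, Fas and Rasgef1b lost their calls (adjusted p = 0.058, 0.074, 0.105, 0.099 and 0.060). That of Fas was also lost without any 1 of 6 of the 16 single arrays, and that of Cd83 without treated SIMPL-/- array 2.

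A few genes moved further, fell less, or moved the other way, without SIMPL. Vegfa read 10.07, 10.02, 9.99 and 10.08 in untreated and 10.48, 10.62, 10.53 and 10.62 in treated SIMPL-/- arrays, a rise of 0.52 against 0.01 in littermate MEFs, and the difference of 0.51 (0.34 to 0.68) had an adjusted p of 0.0035. Foxc2, a forkhead gene of mesenchyme and vessels, rose by 0.45 and stood at -0.26 in littermate MEFs, and Mmp10 rose by 0.62 against 0.15. The call for Mmp10 was lost when most single arrays were left out, with adjusted p up to 0.077 without treated SIMPL-/- array 2. The ERK phosphatase gene Dusp6 read 9.67, 9.59, 9.64 and 9.67 untreated and 9.49, 9.51, 9.38 and 9.71 treated in SIMPL-/- MEFs, where its response of -0.12 did not pass the test (adjusted p = 0.49), while it fell by 1.05 in littermate MEFs. Its difference of 0.93 was the largest positive one (adjusted p = 7.7e-05). In the other direction, Adm fell by 0.64 in SIMPL-/- MEFs and had a response of 0.16 in littermate MEFs (adjusted p = 0.33), a difference of -0.80 (adjusted p = 0.0014). Snai2 fell by 0.90 against 0.49, a difference of -0.41 (adjusted p = 0.027) that was lost with centred arrays (adjusted p = 0.088) and without any 1 of 9 single arrays (0.0505 to 0.077). Rgs4 had a response of -0.25 in SIMPL-/- MEFs that did not pass the test (adjusted p = 0.16), against a rise of 0.82 in littermate MEFs. The falls of Osr1, Dmrt2 and Zfp503 were close in the genotypes, with differences of 0.06 (-0.19 to 0.31), 0.11 (-0.12 to 0.35) and 0.16 (-0.04 to 0.37). Of the 19 genes with a positive difference 12 were lowered in littermate MEFs. With some overlap, 8 of the 19 were raised in SIMPL-/- and not called raised in littermate MEFs. They were Sox11, Slco4a1, Mmp10, Olfr1537, Vegfa, Flcn, Zcchc10 and Foxc2. Of these, the differences of Sox11, Slco4a1 and Olfr1537 lost their calls without any 1 of 13, 12 and 11 of the 16 single arrays and in the unmoderated test. The rises of Flcn and Zcchc10 lost theirs in the 8 SIMPL-/- arrays alone (adjusted p = 0.073 and 0.096) and without any 1 of 5 of those 8 arrays. The positive count was the least stable. It was 54 without treated SIMPL-/- array 3, 5 to 10 without treated array 2 or 4 or untreated SIMPL-/- array 1, 3 or 4, and 8 to 12 without untreated littermate array 1, 2 or 4 or treated littermate array 1.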

How the data were processed

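Total RNA of MEFs was hybridised to 1-colour arrays (Affymetrix Mouse Gene 1.0 ST), and the labels place 4 arrays in each of 4 groups. The deposited values are log2 values that the authors made by RMA in Partek, per the labels' processing notes, while the methods of the study name another Affymetrix program, and no version of either step is given. Such values are compressed for dim genes, so small fold changes there are understated. The table holds 28853 probe sets, from 2.41 to 14.9. Of these 21789 have 1 gene symbol, 1621 have several and 5443 have none and were left out, and the probe set with the highest mean stood for each of the 999 genes with more than 1. No filter on dim genes was applied. A limma model (limma 3.58.1, R 4.3.3) with a mean for each group was fitted to 19938 genes, with p-values two-sided and adjusted over all genes by Benjamini-Hochberg, at a threshold of 0.05. Within a SIMPL-/- group the lowest Pearson's r between arrays, across genes, was 0.995. Precision is limited by the number of arrays. The procedure was also run on simulated data with independent noise in each array, and embryos shared by arrays were not simulated.

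The genes named are Irak1bp1, the 20 largest rises and 15 largest falls in SIMPL-/- MEFs whose groups do not overlap, the 10 largest differences in either direction, and from each of 23 gene lists up to 4 members with the largest response and 3 with the largest difference. Further list members are given to account for the lists. The members and lists were chosen with earlier results of these data known, so counts over a list are descriptions. Some genes stand in more than 1 list. The rule also selects genes whose responses are not reported here. Nfkb1 and Chuk were not analysed here. RefSeq promoter windows (GRCm38.p6) were matched by symbol. Alternatives were array centring, quantile normalization, leaving out genes with a mean under 6, the mean of the probe sets of a gene, trend and robust variances, array weights, the 8 arrays alone, the unpaired t-test of the methods, other thresholds, and leaving out each array. The t-test was replaced by an unmoderated test where responses were compared.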

Additional observations from a re-analysis of the deposited data

Results flagged for a closer look

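Of 72 groups of 4 SIMPL-/- arrays for the named genes, 4 held an array apart from the other 3 by Dixon's ratio, where chance alone gives about 5% of groups. All were untreated groups. The ratio was 0.8294 for Ccl20, at the critical value, 0.903 for Rnd1, 0.905 for Cxcl5 and 0.853 for Sertad4. For Ccl20 and Rnd1 the array apart was the low array 4, for Cxcl5 the high array 3 and for Sertad4 the low array 2. Each of these arrays lay apart from the treated arrays, which the rule that picked these genes required.

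Among the largest rises, falls and differences reported here, 30 genes had TNFα responses that differed between the genotypes (limma, adjusted p under 0.05). Genes taken for a large difference were chosen by that value, so their part of the count was fixed by the choice. Genes named only as list members are left out, though some also had a called difference, such as Icam1 (-1.11) and Vcam1 (-0.63). As SIMPL-/- minus littermate response on the log2 scale, the chemokine genes Cxcl10, Ccl20, Ccl7 and Cxcl2 differed by -0.61, -1.08, -0.42 and -1.04. The regulators of NF-κB Tnfaip3, Nfkbia and Tnip3 differed by -0.56, -0.40 and -1.29, and Irf1 by -1.10. The surface proteins Sele, Clec4e, Ccrl2, Tlr2 and Cd69 differed by -1.64, -2.11, -1.51, -1.45 and -1.38. The signalling and trafficking genes Rnd1, Gem, Stx11, Tnfaip2 and Rasgef1b differed by -1.64, -0.78, -0.65, -1.30 and -1.20. Snai2 and Adm, both lowered in SIMPL-/- MEFs, differed by -0.41 and -0.80. Positive differences were 0.93 for Dusp6, 0.71 for Foxc2, 0.70 for Zcchc10, 0.62 for Flcn, 0.58 for Zfp566, 0.53 for Prkar2a, 0.51 for Vegfa, 0.50 for Kcne4, 0.50 for Stam and 0.49 for Usp1. Of these, Zfp566, Prkar2a, Kcne4, Stam and Usp1 lost the call without any 1 of 3, 8, 4, 12 and 11 of the 16 single arrays. They also lost it in the unmoderated test, as did Foxc2 and Zcchc10.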

How the results depend on the processing

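No called response or difference of a named gene changed sign under the alternatives tried, while some uncalled values near 0 did, such as the responses of Socs3 and Kcne4 and the differences of Cxcl5 and Nr4a3. For the responses in SIMPL-/- MEFs, 2298 values stayed on the same side of the threshold, 163 lost the call and 9 gained one, and for the differences these numbers were 1656, 200 and 23. The calls for Cxcl10, Ccl2, Tnfaip3, Nfkbia, Snai2 and Osr1 as responses held under each alternative. Small responses near the threshold were lost most often, such as those of Btg1, Tab1, Tab3, Casp4, Ptgs2, Mdm2, Tap1, Flt1 and Krt19, and the call for Nqo1 was lost in the 8 arrays alone (adjusted p = 0.054 from limma). Calls for Ccl11, Trafd1, Il1a, Inhba and Gadd45g were also lost without some single arrays. Larger responses lost theirs in the methods' t-test. Its adjusted p was 0.061 for Slc40a1, 0.065 for 2610008E11Rik, 0.055 for Adm and Dmrt2, 0.081 for Dhrs3 and 0.092 for Ppp1r3c. It was 0.32 for Nqo1, and 0.069 and 0.072 for the rises of Atf3 and Cd83. The 345 raised genes became 175 with the methods' t-test, 220 at an adjusted p under 0.01 and 88 at a fold over 1.5 with an unadjusted p under 0.001. The 278 lowered genes became 152 with centred arrays, 439 with array weights, 145 in the 8 arrays alone, 66 with the t-test, 93 at an adjusted p under 0.01 and 16 with the fold rule. The 88 negative differences became 155 with trend and robust variances, 41 at an adjusted p under 0.01 and 57 with the fold rule. The 19 positive differences became 39 with quantile normalization, 38 without dim genes, 98 with trend and robust variances, 50 with array weights, 7 with the unmoderated test, 2 at an adjusted p under 0.01 and 9 with the fold rule. Leaving out single arrays gave 248 to 421 raised genes, 145 to 376 lowered genes, 61 to 130 negative and 5 to 54 positive differences, with the highest of each without treated SIMPL-/- array 3. Why a count moved was not tested. No paired analysis was possible because neither the labels nor the methods say which arrays come from the same embryo.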
